A study of Schizosaccharomyces pombe 972h- with 4 samples.

Results

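Transcript levels of Ofd2Δ cells were compared with those of wild type (wt) cells in normal oxygen, the condition in which no hypoxia treatment was given. This comparison uses 2 of the 4 arrays of the series, 1 for each strain, chosen by their labels, and it covers 4997 array targets, of which 1645 could be paired with a gene name. The organism is the fission yeast Schizosaccharomyces pombe. The wt cells were strain 972h-, and the Ofd2Δ cells carried a deletion of Ofd2 replaced by a KAN marker in the same mating type (strain DL1003), and are 1 strain. Both strains were grown with shaking to exponential phase in yeast extract medium with glucose and supplements (YES). The cultures compared here were then kept for 90 min in normal oxygen (20%). The remaining 2 arrays hold the same strains after 90 min of hypoxia (below 1% oxygen). On each array the RNA of 2 independent experiments was pooled before labelling, so no array has a replicate and no p-value was computed. Errors are given as the spread between the 2 blocks of an array, each of which holds 7 probes of a target, and this spread is technical.

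Ofd2 belongs to the dioxygenases that use 2-oxoglutarate, Fe(II) and molecular oxygen, and the study assigns it an activity towards histone H2A. A relative in the same yeast, Ofd1, controls the degradation of the transcription factor Sre1 according to oxygen, and Sre1 in turn activates genes of sterol synthesis when oxygen is low. In glucose medium with oxygen, fission yeast ferments and respires at the same time, and genes for the use of other carbon sources are repressed. Normal oxygen therefore gives the state of the respiratory, sterol, heme and chromatin genes before any hypoxic response. The question asked here is which of these gene groups already differed between the strains in that state.

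The median gene spot was at an intensity of 7529 on the wt array and 6597 on the Ofd2Δ array before normalisation, against 125 and 122 for the control spots, which carry random sequences. Of the 4997 targets, 4982 in wt and 4975 in Ofd2Δ were brighter than 95% of the control spots. These 2 arrays were scanned on the same occasion. Levels below are normalised intensities on a linear scale, and a fold change is the Ofd2Δ level over the wt level, taken in each block and averaged over both blocks. Levels of different genes are not compared with each other, since probes differ in brightness. No named target is the gene encoding Ofd2, which left the deletion without a check by name. The P-factor gene map2, a marker of h+ cells, was at 565 and 525 in the 2 wt blocks and at 521 and 548 in Ofd2Δ, so the blocks of the strains overlapped. Here and below, overlap or its absence describes technical spread only. The share of all targets whose blocks do not overlap is not given, so absence of overlap alone does not mark a gene as changed.

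The profiles of the strains were close to each other in normal oxygen. The median ratio over all targets was 1.004, the quartiles were 0.963 and 1.045, and 90% of the targets lay between 0.899 and 1.12. Normalisation gave the arrays the same distribution of intensities, so a median near 1 was set by the processing. Levels on the log2 scale had a Pearson correlation of 0.996 across the targets of the 2 arrays, which also reflects differences in brightness between probes. The study applied a limit of 1.5-fold to the strains' ratios of hypoxia to normal oxygen, and the same size of limit was used here for another quantity, the Ofd2Δ level over the wt level within normal oxygen. At this limit 4 targets (0.08%) were higher and 11 (0.22%) were lower in Ofd2Δ, 15 (0.3%) in all. At 2-fold these numbers were 1 (0.02%) and 4 (0.08%). Among the 1645 named targets, 0 were higher and 1 (0.0608%) was lower at 1.5-fold. A limit of 1.2-fold, chosen after the data had been seen, was passed by 34 targets (0.68%) that were higher and by 64 (1.28%) that were lower. Of the named targets 9 (0.547%) were higher and 17 (1.03%) were lower at this limit, 26 (1.58%) in all.

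The difference between the blocks sets the resolution of this comparison. The log2 ratio of a target differed between its 2 blocks by a median of 0.10 and by 0.30 at the 95th percentile, while the median size of the log2 ratio itself was 0.06. In 2202 targets (44.1%) the 2 blocks lay on opposite sides of a ratio of 1. Across targets the log2 ratios of the blocks correlated with r = 0.35 when the lowest target was left out and with r = 0.18 among the 3748 targets above the 25th percentile of level. For 17 genes that are each represented by 2 separate targets, the log2 ratios of the pair differed by a median of 0.06 and by at most 0.34. A ratio within 1.2-fold of equality is smaller than the block difference at its 95th percentile.

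Low levels held nearly all of the targets past the limit. With the targets divided by level into 4 groups of like size, 14 of the 1250 dimmest were past 1.5-fold, against 0, 1 and 0 in the brighter groups. The interquartile range of the log2 ratio narrowed from 0.163 in the dimmest group to 0.0965 in the brightest. At 1.2-fold the dimmest group held 29 of the 34 higher and 51 of the 64 lower targets, and the brightest held 0 of either. The target with the lowest ratio, described next, is among the dimmest only through its level in Ofd2Δ, since level here is the mean of the log2 levels on all 4 arrays.

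**Figure D1:**
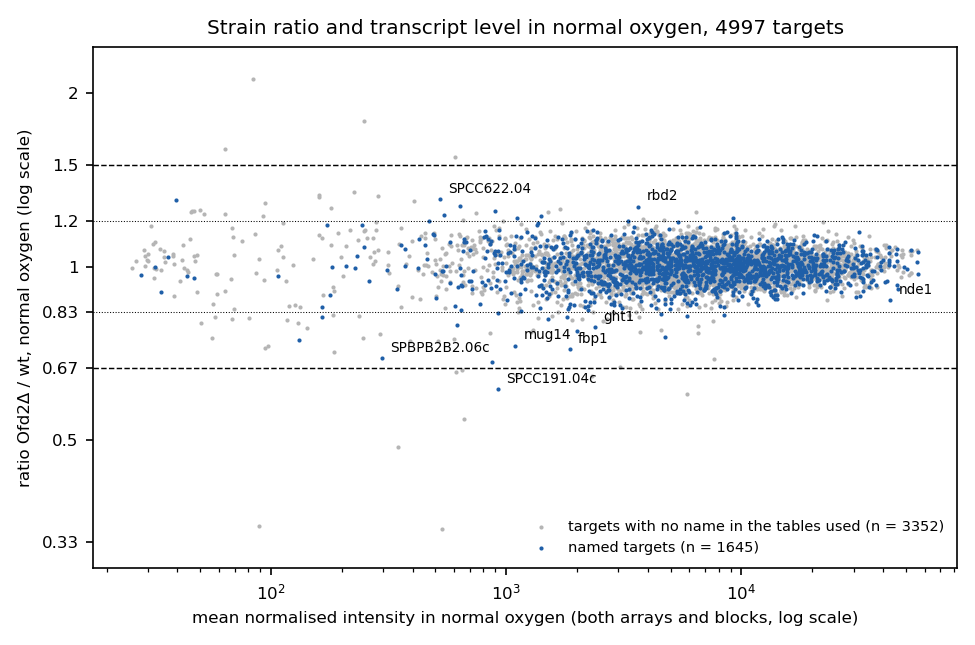
The ratio of the Ofd2Δ level to the wt level in normal oxygen is plotted for each target against its mean level on the 2 arrays, both on log axes, with the 1.5-fold limits as dashed lines and the 1.2-fold limits as dotted lines. Named targets are in blue, unnamed targets are in grey, and the points fan out towards low levels, and 1 target with a ratio of 0.00412 is outside the axis.

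The lowest ratio belonged to TI4896S004938, which the tables used do not pair with a name. It was at 6900 and 6302 in the wt blocks and at 27.3 and 27.0 in the Ofd2Δ blocks. Its 14 spots read between 6442 and 11176 in wt before normalisation, and between 95.1 and 140 in Ofd2Δ, all under the 95th percentile of the control spots of that array (145). It was thus not above background in Ofd2Δ. Against the lowest level of any target above the control spots, the difference was at least 184-fold lower. In hypoxia the same 14 spots read between 3076 and 6310 in wt and between 94.0 and 117 in Ofd2Δ. Whether this target is the deleted gene was not tested.

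Among the 15 targets past the limit, TI4896S001969 was the only one above the 25th percentile of level. It was at 7743 and 6875 in wt and at 4701 and 4084 in Ofd2Δ, so the blocks of the strains did not overlap. The ratio was 0.601, all 14 spots were lower in Ofd2Δ, and the ratio in hypoxia was 0.644. The highest ratio was that of TI4896S005020, at 56.0 and 51.9 in wt and at 107 and 120 in Ofd2Δ. This is a ratio of 2.11, but the ratio was 1.44 without background correction and 1.08 with the background fitted on gene spots alone, so the call at 1.5-fold was lost in both settings. The 1 named target past 1.5-fold was SPCC191.04c, at 1083 and 1212 in wt and at 793 and 599 in Ofd2Δ. Its ratio was 0.613, but the blocks gave 0.733 and 0.494, and in hypoxia its ratio was 1.07. Just short of the limit lay SPCC338.18 with a ratio of 0.683 and SPBPB2B2.06c with 0.693, and on the upper side SPCC622.04 with 1.31.

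To look past the low levels, named targets brighter than the dimmest 25% and with both blocks on one side of 1 were ranked by ratio. The highest was rbd2, which encodes a rhomboid protease of the Golgi that takes part in the cleavage of Sre1. It was at 3427 and 2974 in wt and at 4429 and 3710 in Ofd2Δ, a ratio of 1.27, and 13 of 14 spots were higher. The gene top2, for DNA topoisomerase II, was at 8972 and 7749 in wt and at 9368 and 10686 in Ofd2Δ, a ratio of 1.21. The levels of these genes did not overlap between the strains. The other 8 of the 10 highest were lin1 (1.197), SPCC1183.02 (1.17), tim9 (1.17), nat2 (1.16), ubc11 (1.15), tom7 (1.15), rpl101 (1.15) and dpe2 (1.15). Both tim9 and tom7 encode parts of the machinery that imports proteins into mitochondria. For tom7 the wt blocks were at 3789 and 3933, the Ofd2Δ blocks were at 4280 and 4593, and none of its 14 spots was lower in Ofd2Δ. For tim9 the strains overlapped, with 2796 and 3674 in wt and 3355 and 4178 in Ofd2Δ.

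Among the 10 lowest, the ratio of SPCC737.04, a gene described as specific to fission yeast, was 0.755. It was at 5771 and 5057 in wt and at 4427 and 3758 in Ofd2Δ. The next was ght1, which encodes a hexose transporter, with a ratio of 0.785. The bromodomain gene bdf1 was at 6556 and 6393 in wt and at 5785 and 4834 in Ofd2Δ, a ratio of 0.819. The remaining genes were SPAC16A10.01 (0.824), rsn1 (0.829), plb5 (0.843), mob1 (0.849), isp4 (0.850), tgp1 (0.855) and ght5 (0.857). Of these, mob1 encodes an activator of a kinase of the septation pathway, isp4 an oligopeptide transporter, plb5 a lysophospholipase and ght5 the main glucose transporter. All 20 genes lay within 1.5-fold, and they were selected by their ratio, so that their direction is a description only. In hypoxia 7 of the 10 highest were above 1, from dpe2 at 1.01 to ubc11 at 1.31. Below 1 were 2 of the 10 lowest, SPAC16A10.01 at 0.920 and ght5 at 0.890. The farthest on the other side of 1 were tim9 at 0.947 and ght1 at 1.62. Over all targets the median ratio in hypoxia was 1.002, so targets lay about equally on both sides of 1.

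**Figure D2:**
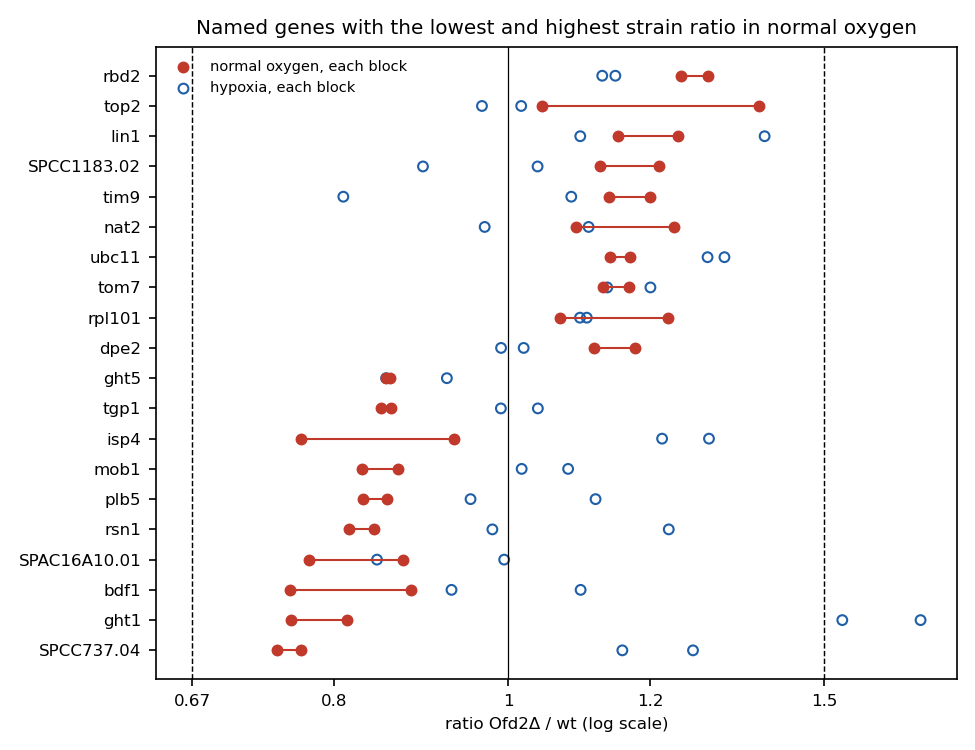
The ratio of Ofd2Δ to wt in normal oxygen is shown on a log axis for the 10 highest and 10 lowest named genes above the 25th percentile of level, with the ratios of both blocks as filled points for normal oxygen and open points for hypoxia, and the 1.5-fold limits dashed. The mean ratios in normal oxygen run from 0.755 for SPCC737.04 to 1.27 for rbd2. In hypoxia 7 of the 10 highest and 2 of the 10 lowest lie on the same side of 1, while all targets have a median of 1.002 there.

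The 32 gene lists hold 448 targets. None of them was past 1.5-fold, against 0.3% of all targets, and 11 (2.46%) were past 1.2-fold, against 1.96% of all targets, 4 higher and 7 lower. The medians of the lists ran from 0.928 to 1.044, against 1.004 for all targets. Which list was highest changed with the setting. It was cytosolic ribosomal proteins here, ubiquinone synthesis with the 2 arrays normalised alone (1.064), with mean of log2 probes (1.065) and with the deposited values (1.112), and translation factors with median scaling (1.11).

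The genes of oxidative phosphorylation were at similar levels in both strains. The cytochrome bc1 complex passes electrons from ubiquinol to cytochrome c, and its list of 7 genes had a median ratio of 1.026 and a range of 0.947 to 1.12. The cytochrome c gene cyc1 was at 25092 and 26694 in wt and at 25769 and 24185 in Ofd2Δ, a ratio of 0.966. The subunit gene qcr8 was at 6886 and 7951 in wt and at 7385 and 7778 in Ofd2Δ, a ratio of 1.03. In both genes the blocks of the strains overlapped. The widest ratios in the list were those of qcr2 (0.947) and qcr10 (1.12), 2 further subunits of the complex. The ratio of qcr9 was 1.03, but it depended on the processing, with 1.17 for the 2 arrays normalised alone and 1.17 in the deposited values. For qcr10 the wt blocks were at 3287 and 3417 and the Ofd2Δ blocks at 3914 and 3602.

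Cytochrome c oxidase reduces oxygen to water at the end of the chain, and its 4 named subunit genes had a median of 1.008, from cox9 at 0.949 to cox5 at 1.11. The 5 genes of ATP synthase and its inhibitor had a median of 0.999, with SPCC1840.06c at 0.959 and atp7 at 1.08. The gene nde1 (SPAC3A11.07) encodes an external NADH dehydrogenase, which feeds electrons from cytosolic NADH into the chain. It was at 45606 and 45856 in wt and at 40716 and 39345 in Ofd2Δ. The ratio was 0.875, 11 of 14 spots were lower in Ofd2Δ, and the blocks of the strains did not overlap. Its ratio was 0.918 with the 2 arrays normalised alone and 0.968 under median scaling. The other dehydrogenases that feed the chain were gut2 (0.951), dld2 (1.03), ndi1 (1.06) and sdh3 (1.06), and the list had a median of 1.035. That median became 0.963 when the 2 arrays were normalised without the hypoxia arrays.

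**Figure D3:**
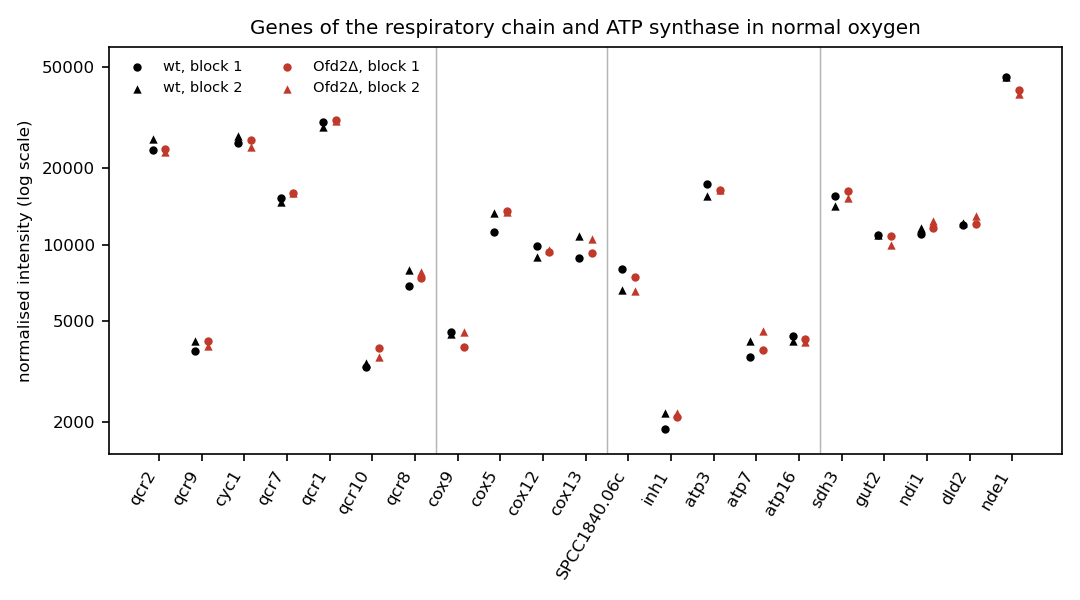
Normalised levels in normal oxygen (log axis) are shown for genes of the respiratory chain, with a circle for block 1 and a triangle for block 2, in black for wt and in colour for Ofd2Δ. The points of the strains overlap in cyc1 and qcr8, and lie apart in nde1, at 45606 and 45856 in wt and at 40716 and 39345 in Ofd2Δ.

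The 5 genes of ubiquinone synthesis had a median of 1.028, between coq3 at 0.959 and coq7 at 1.10. The 24 genes of mitochondrial translation had a median of 1.013, and 13 of them lay above the median of all targets. Their extremes were mrpl8 at 0.967 and mrpl22 at 1.19, but the blocks of mrpl22 gave 0.992 and 1.39. The recycling factor gene rrf1 was at 3895 and 3903 in wt and at 4392 and 4427 in Ofd2Δ, a ratio of 1.13 in both blocks. Of the citric acid cycle and pyruvate dehydrogenase, 7 genes had a median of 0.980. The lowest of these was kgd1 (0.917), for 2-oxoglutarate dehydrogenase, and the highest was idh2 (1.08), for an isocitrate dehydrogenase subunit. The study singled out 8 genes as more repressed by hypoxia in Ofd2Δ than in wt at its 1.5-fold limit. In normal oxygen these 8 had a median strain ratio of 0.976, from 0.875 for nde1 to 1.12 for qcr10. That list was picked on these samples and is no independent evidence.

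Genes for the use of carbon sources had a list median of 0.928, the lowest of the lists in this setting. With the 2 arrays normalised alone, mean of log2 probes, targets above the 25th percentile or the deposited values, the pheromone and meiosis list was lower (0.906 to 0.926), and with median scaling the wtf list was lower (0.858). The list of carbon genes holds 13 targets for hexose transport and for enzymes that glucose represses, and 9 of them lay below the median of all targets. The gene fbp1, for fructose-1,6-bisphosphatase of gluconeogenesis, was at 2250 and 2084 in wt and at 1692 and 1426 in Ofd2Δ. Its ratio was 0.718 and all 14 spots were lower in Ofd2Δ, and under median scaling the ratio was 0.664. The gene ght1 was at 2621 and 2739 in wt and at 1984 and 2228 in Ofd2Δ, and ght5 was at 12997 and 12390 in wt and at 11164 and 10587 in Ofd2Δ. In these 3 genes, which were picked for their low ratios, the blocks of the strains did not overlap. The invertase gene inv1 had a ratio of 0.880, with 12071 and 11749 in wt and 10541 and 10424 in Ofd2Δ. The other members included ght6 (0.890), mal1 (0.909), acs1 (0.928), ght4 (1.04) and ght8 (1.06). The 2 targets past 1.2-fold, fbp1 and ght1, were both lower, which is 15.4% of the list against 1.96% of all targets past 1.2-fold either way. The level of fbp1 lay at percentile 12.9, among the dim targets that held most of these calls, and that of ght1 at 31.2. With the mean of log2 probes the ratio of ght1 was 0.840, within 1.2-fold. In hypoxia the list had a median of 0.916, but ght1 had a ratio of 1.62 and ght4 of 1.75. The median of the list was between 0.926 and 0.966 under the alternative settings. Transporters of the ght family are alike in sequence, and cross-hybridisation between them was not tested.

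Genes of glycolysis, fermentation and the pentose phosphate pathway had a median of 1.005. Their 7 members ranged from 0.868 for gpd3 to 1.06 for adh1, the alcohol dehydrogenase gene. For gpd3, which encodes a glyceraldehyde 3-phosphate dehydrogenase, wt was at 13210 and 11600 and Ofd2Δ was at 10468 and 10949. Its ratio in the deposited values was 0.788.

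Sterol synthesis needs oxygen at several steps, and in fission yeast Sre1 activates it. The list of 13 genes had a median of 1.017. The gene sre1 itself was at 11969 and 11912 in wt and at 12085 and 11840 in Ofd2Δ. Its target erg11, for lanosterol demethylase, was at 45971 and 43110 in wt and at 42850 and 46240 in Ofd2Δ, a ratio of 1.00. The strains overlapped for both genes, but in the deposited values the ratio of erg11 was 0.885. The members with the highest ratios were erg9 (1.11), for squalene synthase, and erg31 (1.11), for a sterol desaturase. For erg31 the wt blocks were at 8918 and 9448 and the Ofd2Δ blocks at 10590 and 9711. The lowest was sur2 (0.907), for a sphingoid base hydroxylase. The desaturase gene ole1 was at 57648 and 52878 in wt and at 54194 and 57896 in Ofd2Δ, a ratio of 1.02.

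Heme synthesis also uses oxygen, at the step catalysed by the product of hem13. That gene was at 16614 and 17245 in wt and at 16950 and 19644 in Ofd2Δ, a ratio of 1.08 with overlapping blocks. The 4 genes of the list had a median of 1.014, and the lowest was met1 at 0.926. Of 11 listed genes for iron, copper and other metals, 10 could be paired with an array target, with a median of 0.956. Among them the ferric reductase gene frp1 had a ratio of 1.13, with 4031 and 4401 in wt and 4740 and 4806 in Ofd2Δ. The vacuolar transporter gene hmt1 had a ratio of 0.892 for 1 of its targets and 1.002 for the other. The siderophore transporter gene str1 had a ratio of 0.957, against 0.460 in hypoxia. The 15 genes of the antioxidant and stress list had a median of 1.004 and ranged from 0.897 for gst2 to 1.12 for grx3. The peroxiredoxin gene tpx1 and the superoxide dismutase gene sod2 were at 0.964 and 0.999.

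Histone H2A is the reported substrate of Ofd2. The H2A gene hta1 was at 29732 and 29449 in wt and at 30335 and 29513 in Ofd2Δ, a ratio of 1.01. The neighbouring H2B gene htb1 was at 33696 and 34005 in wt and at 30896 and 29338 in Ofd2Δ. Its ratio was 0.890, although only 8 of its 14 spots were lower, and it was 0.976 under median scaling. The 2 other histone targets, which carry no symbol in the tables used, had ratios of 1.00 and 1.08. Histone H2A is encoded by more than 1 gene, and cross-hybridisation was not tested.

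The 19 genes of chromatin and silencing had a median of 1.003. The lowest was spt3, for a subunit of the SAGA complex, at 5268 and 5417 in wt and at 4495 and 4912 in Ofd2Δ, a ratio of 0.880. The highest were rik1 (1.15) and ago1 (1.14), both needed for heterochromatin, ago1 as the Argonaute protein of RNA interference. For ago1 wt was at 7876 and 7895 and Ofd2Δ at 8819 and 9231. Other genes of the same process were close to equality, with clr4, for the histone H3 methyltransferase, at 1.04 and clr3, for a histone deacetylase, at 0.986. Among JmjC proteins, which share the cofactors of Ofd2, epe1 had a ratio of 1.01 and jmj3 of 0.943. In the deposited values the ratio of jmj3 was 0.862.

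The wtf genes are a family of meiotic drivers with near-identical copies, so that probes of 1 copy may read others. Their 24 targets had a median of 0.950, 20 of 24 lay below the median of all targets, and the members ranged from 0.838 for SPCC576.16 to 1.12 for wtf15. In hypoxia their median was 1.068, with 15 of 24 above the median of all targets. The wtf targets had a median level at percentile 7.33, and under median scaling their median ratio was 0.858. The 10 targets of pheromones, mating and meiosis control had a median of 0.937. The lowest of these was rec7, for meiotic recombination, at 5060 and 5121 in wt and at 4528 and 4243 in Ofd2Δ, a ratio of 0.862. The kinase genes pka1 and pat1, which hold back meiosis, had ratios of 0.894 and 0.945, and the inhibitor gene mei3 had 0.881. The gene rec11 was measured by 2 targets, which gave 1.18 and 0.929.

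The 43 genes named for upregulation in meiosis (mug and meu) had a median of 0.993, with 1 of them higher and 3 lower at 1.2-fold, or 9.3% of the list against 1.96% of all targets. The median level of the list lay at percentile 15.1, in the range of levels that held most of the targets past 1.2-fold. The gene mug14 was at 1346 and 1184 in wt and at 986 and 860 in Ofd2Δ, a ratio of 0.729, and 14 of 14 spots were lower. The gene meu26 was at 2207 and 2320 in wt and at 1676 and 1827 in Ofd2Δ, a ratio of 0.773, and in hypoxia its ratio was 0.550. These did not overlap between the strains. The other 2 were mug24 (0.832) and mug146 (1.30). The level of mug146 was between 34 and 48 on both arrays, close to the control spots.

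Groups tied to growth were close to equality. The 47 targets for cytosolic ribosomal proteins had a median of 1.044, and 32 of 47 lay above the median of all targets. Their extremes were 0.906 for a target of rps1802 and 1.15 for rpl101, which was at 30309 and 28853 in wt and at 32403 and 35417 in Ofd2Δ. Many of these proteins are encoded by pairs of very similar genes, and cross-hybridisation between the copies was not tested. The 15 translation factors and cytosolic tRNA synthetases had a median of 1.039, with tif452 (1.14) and sup35 (1.13) the highest. For sup35, the translation termination factor eRF3, wt was at 18117 and 20190 and Ofd2Δ at 21401 and 21941. Ribosome biogenesis (15 targets) had a median of 1.007, amino acid synthesis (20) of 1.016, and the proteasome (13) of 1.025. The 12 chaperones had a median of 0.999, from psi1 at 0.901 to hsp20 at 1.07.

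Uptake of amino acids, ammonium and allantoate (18 targets) had a median of 0.950, and the lowest member was agp3, an amino acid permease gene, at 0.861. For phosphate and thiamine (6 targets) the median was 1.035, with pho843 at 0.885 and SPCC18B5.05c at 1.13. DNA repair and checkpoint genes (26) had a median of 1.013 and ranged from 0.901 for ssb3, a subunit of replication protein A, to 1.07. The checkpoint kinase genes rad3, chk1 and cds1 had ratios of 1.04, 1.02 and 1.05. Cell cycle and septation genes (17) had a median of 0.994, with crr1 lowest at 0.902, and the cyclin gene cdc13 had 1.00. Multidrug and other efflux carriers (11) had a median of 1.003.

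The 8 short-chain dehydrogenases had a median of 0.940. One of them, SPCC1739.08c, was at 734 and 644 in wt and at 601 and 492 in Ofd2Δ, with all 14 spots lower and a ratio of 0.791. In hypoxia its ratio was 2.21.

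Of 28 listed members on the sequenced clones nearest to the chromosome ends, 26 could be paired with an array target. Their median was 0.954. Past 1.2-fold were 5 of the 26 (19.2%), against 1.96% of all targets, and the median level of the list lay at percentile 21.5, also among the dim targets that held most of these calls. SPBPB2B2.06c was at 370 and 329 in wt and at 235 and 247 in Ofd2Δ, a ratio of 0.693, and in hypoxia it was 0.549. The other lower member was mug14. The 3 higher members were SPCP20C8.02c (1.27), SPCC569.02c (1.23) and SPCP20C8.01c (1.22), none of which reached 1.5-fold. In the table of normalised values that the authors deposited, SPCP20C8.02c had a ratio of 0.938 and SPCP20C8.01c of 0.680, so that their direction depends on the processing.

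**Figure D4:**
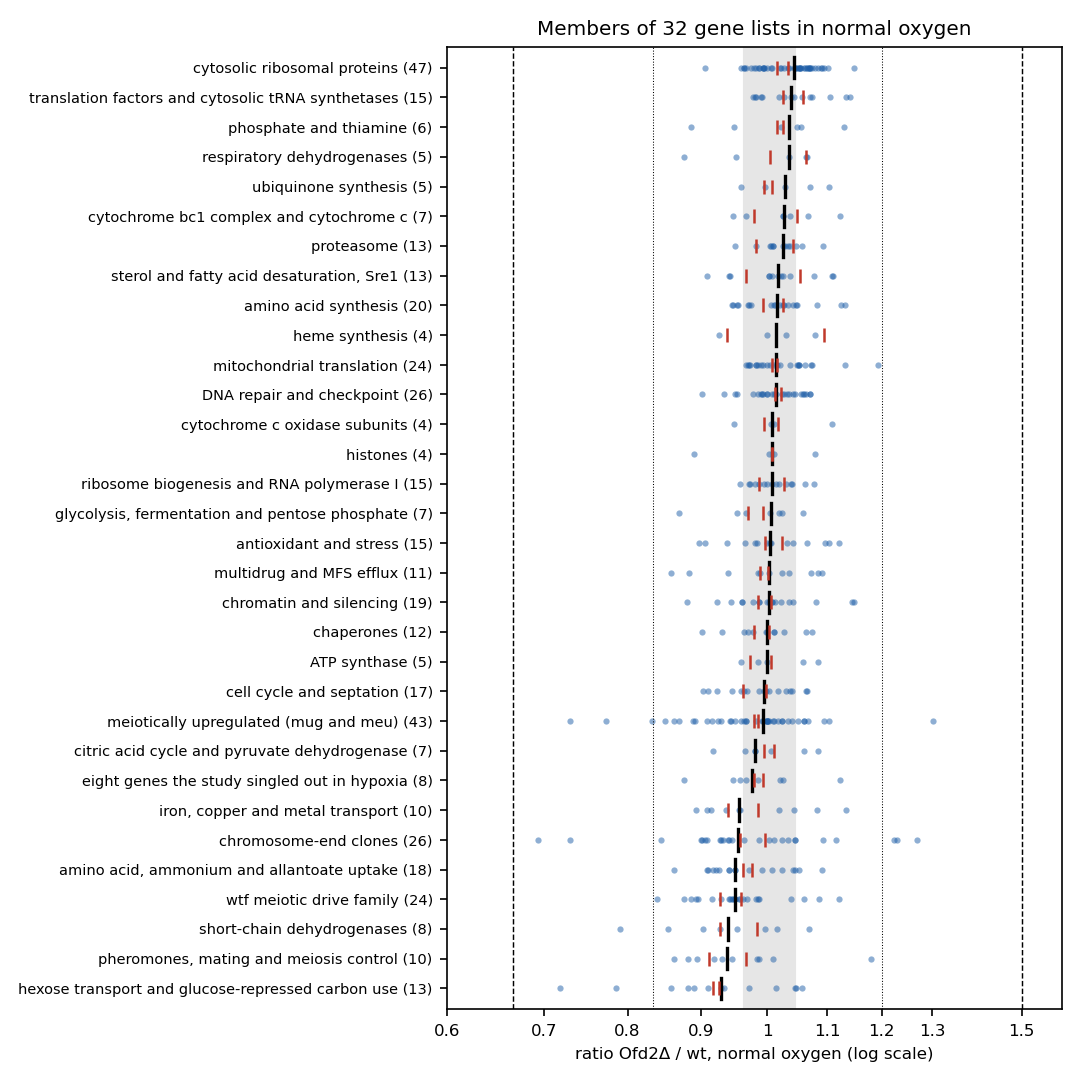
Each gene list is shown with the ratio of Ofd2Δ to wt in normal oxygen for every member as points, on a log axis, and the list median as a black bar beside the medians of the 2 blocks as small ticks. The grey band is the interquartile range of all targets, 0.963 to 1.045, with 1.5-fold limits dashed and 1.2-fold limits dotted. The medians lie between 0.928 for hexose transport and glucose-repressed carbon use and 1.044 for cytosolic ribosomal proteins, and no member reaches 1.5-fold.

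The same strain comparison in hypoxia uses the 2 other arrays and shares none with the comparison in normal oxygen. At 1.5-fold, 82 targets (1.64%) were higher and 34 (0.68%) were lower in Ofd2Δ in hypoxia, 116 (2.32%) in all, and at 1.2-fold 617 (12.3%) and 389 (7.78%), or 20.1% in all. Of the 15 targets past 1.5-fold in normal oxygen, 3 were past it in the same direction in hypoxia, namely TI4896S004938, TI4896S001969 and TI4896S005020, and none of these carries a name. The opposite direction was found for 1 target. Of the 34 targets higher at 1.2-fold in normal oxygen, 10 (29.4%) were also higher in hypoxia and 3 were lower. The 10 are 1.62% of those higher in hypoxia. Of the 64 lower targets, 14 (21.9%) were also lower in hypoxia, or 3.60% of those lower there, and 17 were higher. Across 4996 targets, without the lowest, the log2 ratios in the 2 oxygen states had a Pearson correlation of 0.12. The 4 arrays shared the normalisation, and the correlation was 0.12 also when each pair was normalised apart.

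Among the genes described above, cyc1 had a ratio of 0.966 in normal oxygen and 0.826 in hypoxia. The ratios were 0.875 and 0.902 for nde1, and 1.03 and 1.04 for qcr8. The medians in normal oxygen and hypoxia were 1.026 and 0.935 for the bc1 complex and cytochrome c, and 0.999 and 0.902 for ATP synthase. For cytochrome c oxidase they were 1.008 and 1.074, for respiratory dehydrogenases 1.035 and 1.029, and for sterol genes 1.017 and 0.942. For cytosolic ribosomal proteins they were 1.044 and 1.10. The names of 44 targets came from the study's lists of genes changed more than 2-fold in hypoxia. List members named in this way were picked on these arrays, by their ratio of hypoxia to normal oxygen. Medians that include them are therefore partly preselected in both oxygen states. The scan of the Ofd2Δ array in hypoxia was made on another occasion than those of the other 3 arrays, and this array had a median gene spot of 4009, with 0 saturated spots against 77 to 97. Its scan cannot be told apart from strain and oxygen together, and the differences between the oxygen states were not tested.

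**Figure D5:**
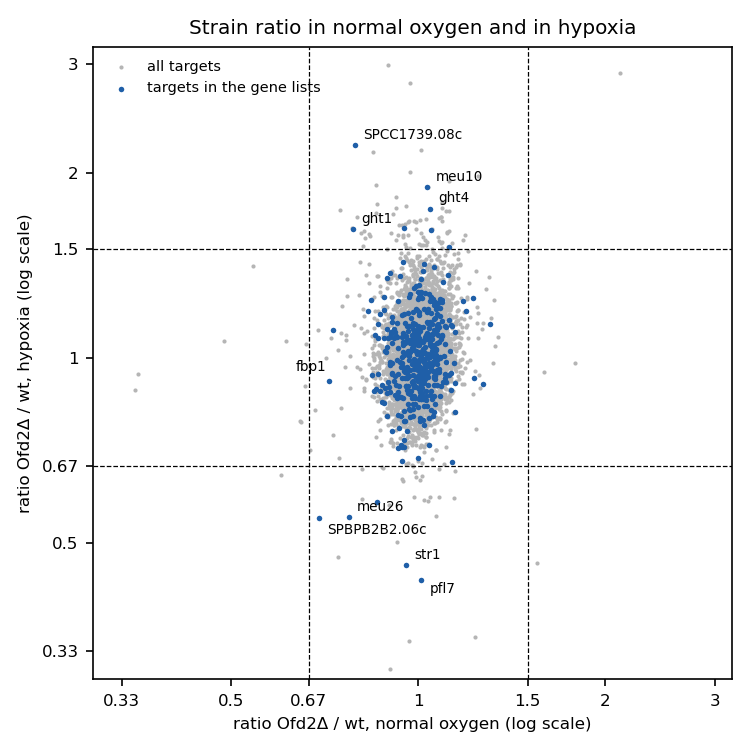
The ratio of Ofd2Δ to wt in hypoxia is plotted against the ratio in normal oxygen for each target, on log axes, with list members in colour, the 1.5-fold limits dashed, and 2 targets outside the axes. The cloud is wider along the hypoxia axis than along the normal oxygen axis, with 116 and 15 targets past 1.5-fold, and 3 targets are past the limit in the same direction in both.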

How the data were processed

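Transcript levels were measured on 4 single-colour arrays, of which 2 were compared here. The authors deposited the intensity of every probe, on a linear scale and not normalised, as extracted with NimbleScan 2.4.31 per the file headers, and a table of normalised intensity values, for which the submitters' notes name RMA. From the probe files, the RMA background was fitted on all spots including controls, arrays were quantile-normalised, and the probes of each target were summarised by median polish per block over the 4 arrays. The fit on all spots was chosen after its counts and those of a fit on gene spots alone had been seen. No test was made, since each side has 1 array, and the number of arrays limits the precision. Targets were counted at 1.5-fold and 2-fold, and 1.2-fold was added later. Names came from the study's supplementary tables (1601 and 44 targets), which are held in part, and from RefSeq (assembly ASM294v3, 1617 found, 1374 with a symbol), so 3352 targets are unnamed. The 44 were named from the study's lists of genes changed more than 2-fold by hypoxia in wt or Ofd2Δ. Only 24 named targets lie on chromosome I. No probe sequences were used here.

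Named genes are up to 4 members of each list (2 highest and 2 lowest ratios), the 10 highest and 10 lowest named targets above the 25th percentile of level with both blocks in one direction, the genes measured by RT-qPCR in the study, and any named target past 1.5-fold in both oxygen states. The other genes named, among them mug24, SPCP20C8.01c, inv1, sre1, clr4 and jmj3, and the unnamed targets were chosen after their values were seen. The members and lists were chosen with earlier results of these data known. The alternatives tried were 8 fixed settings and 1 added. Scripts were tested on simulated data and ran in Python 3.11.15 with pandas 2.3.3, numpy 2.4.6, matplotlib 3.10.9 and scipy 1.17.1, and in R 4.3.3 with limma 3.58.1.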

Additional observations from a re-analysis of the deposited data

Results flagged for a closer look

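TI4896S000919, a target without a name in the tables used, had strain ratios past 1.5-fold in opposite directions in the 2 oxygen states. In normal oxygen it was at 516 and 437 in wt and at 682 and 777 in Ofd2Δ, a ratio of 1.551, and all 14 spots were higher in Ofd2Δ. In hypoxia the ratio was 0.463. The difference was not tested, since each condition has 1 array, and its level lay at percentile 3.06 of all targets.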

How the results depend on the processing

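No paired analysis was possible because each condition has 1 array and the labels give no shared replicate numbers, and no replicate could be left out. The counts depended on the processing. Targets higher at 1.5-fold numbered 4, and 0 without background correction, 1 with normexp, 1 with median scaling, 0 above the 25th percentile of level, 2 with both blocks past the limit and 0 with the background fitted on gene spots alone, a setting chosen after seeing the data. Lower targets numbered 11, and 7, 7, 39, 1, 6 and 5 in the same order. At 2-fold, the 1 higher target became 0 in these 6 settings and with the deposited values, and the 4 lower targets became 2 without background correction, 2 with normexp, 0 above the 25th percentile and 1 with gene spots alone, but 5 with median scaling and 5 with the mean of log2 probes. At 1.2-fold, the 34 higher targets became 13, 18, 21, 5, 18 and 16 in the same order, and the 64 lower became 219 with median scaling, 13 above the 25th percentile and 41 with both blocks. The 3 targets shared with hypoxia became 5, 1 and 7 with median scaling, above the 25th percentile and with the deposited values. Of the list medians, 5 moved by more than 0.10 on the log2 scale, the median difference between blocks. These were respiratory dehydrogenases to 0.963 (the 2 arrays normalised alone), ubiquinone synthesis to 1.11 (deposited values), and with median scaling glycolysis to 1.10, histones to 1.08 and wtf genes to 0.858. Shifts just under it with median scaling were those of translation factors to 1.11, ribosomal proteins to 1.107, sterol genes to 1.085 and mug and meu genes to 0.932. SPCC191.04c was not past 1.5-fold with both blocks or with gene spots alone. Its level lay at percentile 4.42, so the setting above the 25th percentile left it out whatever its ratio. Under median scaling 8 named targets were past 1.5-fold. The cause of these shifts was not tested.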

Other observations

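The deposited table of normalised values and the probe files gave strain ratios in normal oxygen that correlated with r = 0.88 across 4996 targets, without the lowest. Past 1.5-fold, 11 targets were shared in the same direction and 3 were past the limit in the deposited table alone. For these 3 targets the deposited ratios were 0.657, 0.531 and 0.499, and the probe files gave 0.670, 1.10 and 1.05. Deposited values were paired with targets by their order.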
